A study of Mus musculus with 4 samples.

Results

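The segment examined here is the 150 kb of distal mouse chromosome 7 from 136900000 to 137049999 (build mm6) taken as the surroundings of the bait in a circular chromosome conformation capture (4C) experiment. Its members were chosen by position alone, as all tiling probes of the array that start between these coordinates. They number 2870 of 388160 tiling probes. Of the 2870, 2508 belonged to the tiled region from 136488552 to 138655803, with a median step of 52 bp, and 362 had no region label, with a median step of 100 bp. Probes were 50 bases long, so that the tiled-region probes nearly abutted.

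4C uses ligation of nearby chromatin fragments and amplification from a chosen fragment, the bait, to show which other fragments lie close to the bait in the nucleus. Fragments next to the bait on the same chromosome are joined most often, because the fibre holds them close. The bait was the imprinting control region (ICR) of H19, which binds the insulator protein CTCF on the maternal copy, is methylated on the paternal copy, and thereby directs shared enhancers to H19, a non-coding RNA, or to Igf2, a fetal growth factor. In the RefSeq genes of mouse assembly GRCm38.p6, Igf2 and Ins2 lie on one side of H19 and Nctc1 and Mrpl23 on the other. Gene positions in mm6 were not used here, so the stretches below are named by position, and no source used here gives the place of the bait within the segment.

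The groups were mouse embryonic stem cells of the R1 line (ES) and embryoid bodies derived from such cells in vitro (EB; differentiated for 12 days), aggregates that hold several early lineages. Each group had 2 arrays, each of a biological replicate that pooled 3 samples. On every array Cy5 marked the 4C product and Cy3 input genomic DNA cut with MboI. The array was designed on places that an earlier genome-wide 4C screen had favoured, in which both of these cell states were among the pooled sources. R1 is the single line the labels name, no array of a sample without the bait was analysed here, and neither parental copies nor cells within a pool can be told apart.

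Signal is given as log2 Cy5 intensity minus the median of the tiling probes of the same array, and a probe was called positive at 1 log2 unit, 2-fold over that median. The medians were 969 and 1521 intensity units for ES replicates 1 and 2 and 543 and 1638 for EB replicates 1 and 2, close to those of the 1193 random control probes (963, 1481, 534 and 1607). The scanner stopped at 65535 units, which is 6.08, 5.43, 6.92 and 5.32 log2 units over the median on the same arrays. A probe is called near the limit when it lay within 2-fold of that value. No random control probe was positive on all 4 arrays, on both ES arrays alone or on both EB arrays alone. Array by array, 6, 4, 1 and 12 of the 1193 were positive, in the order given above.

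In ES cells a large share of the segment carried 4C signal, and in embryoid bodies a small share did, in few stretches. Positive probes made up 36.2% and 44.4% of the segment on the ES arrays and 8.05% and 9.69% on those of EB. Over all tiling probes the shares on the same 4 arrays were 1.54%, 2.1%, 0.574% and 1.52%. The means were 40.3% ± 5.79 in ES against 8.87% ± 1.16 in EB (SD, n = 2), a difference of 31.5 percentage points. The arrays of the 2 states did not overlap, and an exact permutation test of 2 arrays against 2 gave p = 0.333, the smallest it can reach. The two-sided test therefore cannot pass a threshold of 0.05. Whether the lower share in EB comes from fewer contacts was not tested. Fewer cells with a contact and fewer contacts per cell cannot be told apart in these pools either. Mean signal over the segment was 1.39 and 1.86 log2 units in ES against 0.49 and 0.51 in EB, and EB minus ES was -0.90 within replicate 1 and -1.35 within replicate 2, whose arrays were extracted with different versions of the scanner software.

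**Figure D1:**
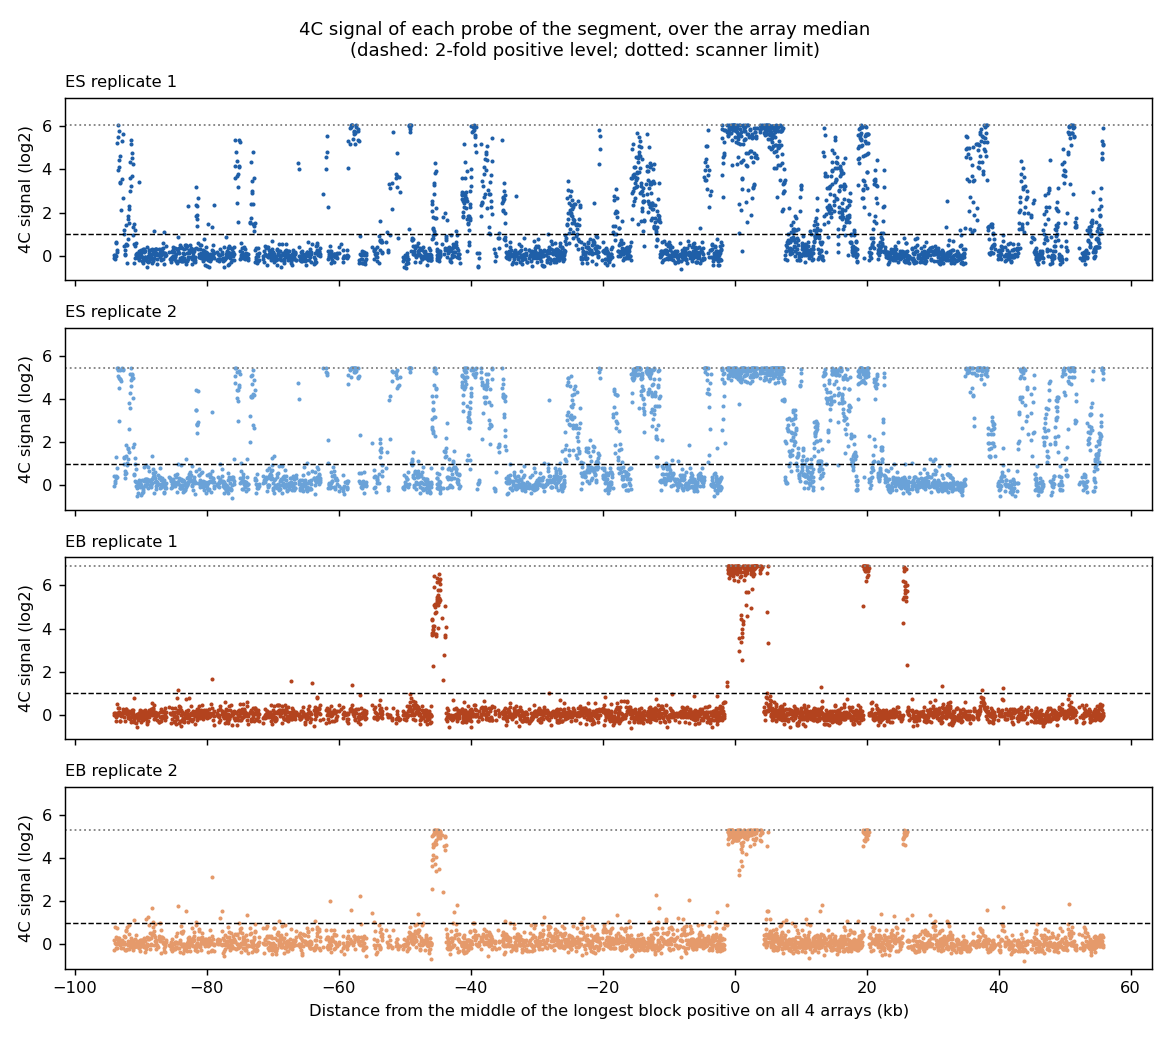
Each point is 1 probe of the segment, with its 4C signal (log2 over the array median) against the distance in kb from the middle of the longest block positive on all 4 arrays, in a panel for each array. The dashed line is the 2-fold positive level and the dotted line the scanner limit; both ES arrays have signal at many places along the segment, and the EB arrays have it near -45, 0, 20 and 26 kb.

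The segment as a whole had higher positive shares than the rest of its tiled region in both states. Just inside against just outside its borders, the direction differed between the borders and between the states. In the other 24854 probes of the distal region the positive share was 6.82% and 9.39% in ES against 0.785% and 2.39% in EB. The segment lay higher on 4 of 4 arrays, by 29.4 and 35.0 percentage points in ES against 7.26 and 7.29 in EB (exact sign-flip test over the 4 arrays, two-sided, p = 0.125, the smallest possible). With 0.739% of the tiling probes, the segment held 1020 of the 3603 probes positive on both ES arrays (28.3%) and 223 of the 1478 positive on both EB arrays (15.1%). Its borders are set by the coordinates and not by the signal. In the 10 kb just inside the lower border 21.7% and 24.6% of the probes were positive in ES, against 0.571% and 3.43% in EB. In the 10 kb just outside it the shares were 22.04% and 29.6% in ES, above those inside on both arrays, and 0% and 2.15% in EB. At the upper border the ES shares were 46.7% and 64.0% inside and 37.6% and 39.8% outside, and the EB shares 0% and 0.508% inside and 0% and 2.26% outside.

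Probe by probe, far more probes were positive in ES alone than in EB alone. Positive on both ES arrays and neither EB array were 828 probes (28.9%), on both EB arrays and neither ES array 40 (1.39%), and on all 4 arrays 172 (5.99%). A further 1516 probes (52.8%) were positive on none. Among the remaining probes, 222 were positive on ES replicate 2 alone, with a median of 1.60 log2 units there and 0.55 on ES replicate 1, whereas 18 were positive on ES replicate 1 alone. The 828 probes had medians of 3.22 and 4.88 log2 units on the ES arrays, against 0.03 and 0.09 on those of EB, and with EB set at the 2-fold level ES exceeded it by at least 1.08- to 27.0-fold (median 8.25). The 40 probes had medians of 5.74 and 5.14 in EB against 0.04 and 0.11 in ES, an excess of at least 1.38- to 32.1-fold (median 21.3). Since these sets were picked by their values, their folds describe them and are no test. Of the 223 probes positive on both EB arrays 77.1% were positive on all 4 arrays, against 16.9% of the 1020 positive on both ES arrays.

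**Figure D2:**
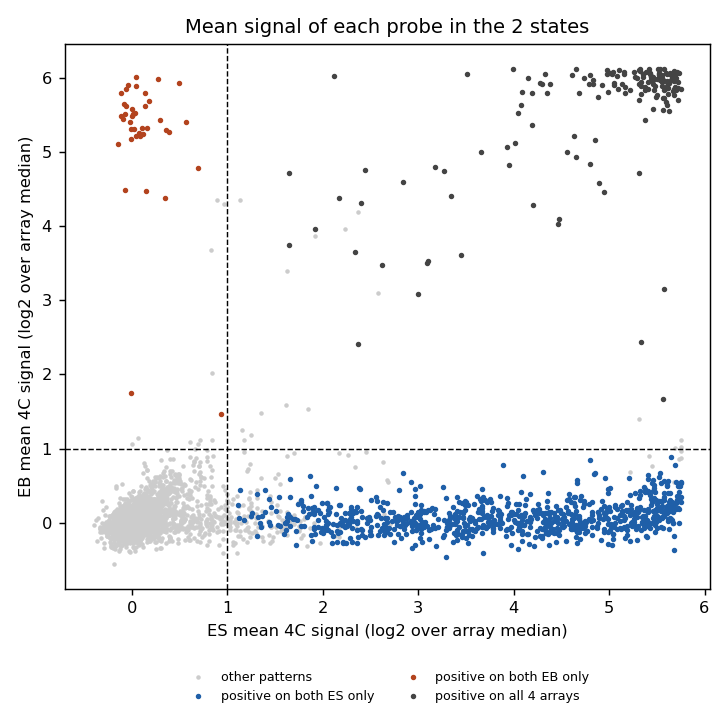
Mean 4C signal of each of the 2870 probes in EB (vertical axis) against ES (horizontal axis), both as log2 over the array median, coloured by the arrays on which the probe was positive, with dashed lines at the 2-fold level. The 828 ES-only probes spread along the ES axis at EB values under 1, the 40 EB-only probes form a small group at the upper left, and most of the 172 shared probes crowd near the scanner limit at the upper right.

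A limma model fitted over all 388160 tiling probes called 626 probes of the segment higher in ES against 43 higher in EB (p under 0.05 after Benjamini-Hochberg adjustment, 2 arrays a group). These are 21.8% and 1.498% of the segment, against 0.517% and 0.069% of all tiling probes. With the replicate as a block the counts were 893 and 54. Counts were lower with the log2 ratio of 4C to input, at 341 and 36, and without probes near the limit, at 128 and 1. The median EB minus ES difference was -0.21 log2 units over the segment and 0.00096 over all tiling probes. The lower ES array exceeded the higher EB array on 1363 probes (47.5%), against 15.5% of all tiling probes, and the reverse held on 256 (8.92%), against 15.2%. Of the called probes, 493 (73.7%) were near the limit on at least 1 array, where the true difference can be larger than the measured one. Without ES replicate 1, 1039 probes were called higher in ES, and without ES replicate 2, 86 were called higher in EB.

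Among called probes below the near-limit level on every array, 175 were higher in ES (8.19% of 2136 such probes) and 1 in EB (0.0468%). Among all 385939 tiling probes below that level the shares were 0.159% and 0.0111%. Those with the largest differences follow. The probe at 136956340 to 136956389 (CHR0700P136956340) read 4.78 and 4.09 log2 units in ES against -0.18 and 0.64 in EB, so that ES exceeded EB at least 10.8-fold (limma adjusted p = 0.00037). The probe at 136918569 (CHR0700P136918569), at -75.5 kb from the reference point defined in the next paragraph, read 4.38 and 4.05 in ES against -0.13 and 0.43 in EB, at least 9.27-fold (limma adjusted p = 6.77e-05). At 136992360 (CHR0700P136992360), the values were 4.29 and 3.66 in ES against 0.0056 and -0.12 in EB, at least 7.85-fold (limma adjusted p = 7.01e-05). In these 3 probes both ES arrays lay over 3 log2 units above both EB arrays. The single probe higher in EB (CHR0700P136949243, start 136949243) had 0.18 and 0.52 in ES against 5.25 and 3.51 in EB, at least 10.4-fold (limma adjusted p = 0.0067). Its call was lost with robust eBayes (limma adjusted p = 0.99999). The calls at 136956340 and 136918569 were lost with the log2 ratio of 4C to input (limma adjusted p = 0.631 and 0.053).

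The longest block positive on all 4 arrays ran from 136992945 to 136995242 (65 probes, 2298 bp). A block is a stretch of at least 3 adjacent probes of 1 pattern with steps of at most 300 bp. Since blocks are built from that pattern, their values and folds describe them and test nothing. The middle of this block, at 136994093.5, is the reference point for the distances given here, with negative values toward lower coordinates. It was picked by its signal, so the height of the signal at 0 kb is no finding. The block read 5.40 and 5.23 log2 units in ES against 6.28 and 4.94 in EB. A second shared block followed from 136995285 to 136997567 (52 probes), with 4.92 and 5.26 in ES against 6.51 and 5.12 in EB. Between 57.7% and 100% of the probes of both blocks were near the limit, so that the states cannot be ranked there. The 1 kb bins from 136993000 to 136997999 had EB minus ES of 0.33 to 0.98, and limma called none of these 5 bins (adjusted p = 0.99998 each).

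On either side of the shared blocks the 2 states parted over a short distance. Toward lower coordinates, the ES-only block from 136992100 to 136992617 (12 probes) had 4.91 and 4.48 log2 units in ES against 0.18 and 0.25 in EB, so that ES exceeded EB at least 12.98-fold. Toward higher coordinates, EB signal went on over 8 probes to 136998252, with 6.80 and 5.11 in EB against 5.94 and 5.28 in ES, and over 4 probes from 136998978 to 136999127. Beyond these, the ES-only block from 136999478 to 137001335 (51 probes) read 5.24 and 5.26 in ES against 0.09 and 0.21 in EB, so that ES exceeded EB at least 19.0-fold. The continuous ES stretch around it reached from 136997915 to 137001699 (98 probes, 3785 bp) and was the longest of the segment in ES.

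**Figure D3:**
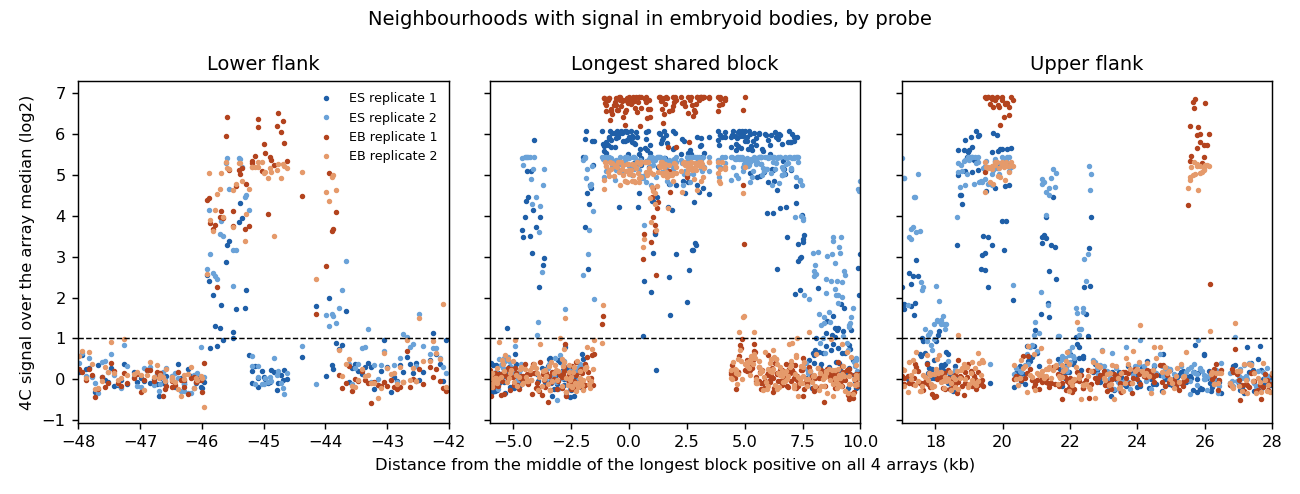
4C signal (log2 over the array median) of each probe against distance in kb from the middle of the longest shared block, in 3 windows, with 1 colour for each array and the 2-fold level dashed. In the left window the EB arrays are high where the ES arrays are low between -45.2 and -44.4 kb, in the middle window the ES signal goes on past the end of the EB signal to 7.58 kb, and in the right window signal is shared near 20 kb and found in EB alone from 25.5 to 26.2 kb.

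Embryoid bodies had 6 stretches of at least 3 adjacent probes positive on both EB arrays, at 4 places. Together they held 220 of the 223 probes positive on both EB arrays and spanned 8850 bp, 5.90% of the segment. ES cells had 58 such stretches with 945 probes, which spanned 42806 bp, 28.5% of the segment. The stretches had a median of 800 bp and a longest of 4623 bp (118 probes) in EB. In ES the median was 390 bp and the longest 3785 bp (98 probes). ES signal also covered the longest EB stretch, in neighbouring stretches from 136992893 to 136995242 and from 136995285 to 136997567. Of its 118 probes, 117 were positive on ES replicate 1 and 118 on ES replicate 2. The longest stretches therefore do not rank the states. Besides the shared blocks near 0 kb, the EB stretches lay from 136948151 to 136950289 (46 probes, -45.9 to -43.8 kb), from 137013534 to 137014415 (25 probes, 19.5 to 20.3 kb) and from 137019571 to 137020288 (19 probes, 25.5 to 26.2 kb). These stretches were chosen after their values were seen and are described without a test of their own.

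The lower EB stretch combined shared and EB-only signal. Its block from 136948463 to 136948828 (11 probes) was positive on all 4 arrays, with 2.68 and 4.45 log2 units in ES against 4.89 and 4.69 in EB. The next block, from 136948879 to 136949737 (19 probes), was positive in EB alone, with 0.07 and 0.11 in ES against 5.57 and 5.07 in EB, so that EB exceeded ES at least 19.9-fold. The 1 kb bin starting at 136949000 rose in EB by 4.93 ± 0.13 log2 units (SE, limma adjusted p = 8.34e-06). With 26.7% and 86.7% of its probes near the limit on the EB arrays, the true rise can be larger. The bin before it, from 136948000, read 1.51 and 2.88 in ES against 4.16 and 4.11 in EB and was not called (limma adjusted p = 0.186).

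Between 18.7 and 20.3 kb an ES-only block and shared signal lay within less than 2 kb. The ES-only block from 137012754 to 137013531 (22 probes) read 5.06 and 5.16 log2 units in ES against -0.014 and 0.16 in EB, so that ES exceeded EB at least 17.3-fold. The shared block from 137013742 to 137014415 (19 probes) read 4.83 and 5.06 in ES against 6.73 and 5.17 in EB, with 100% of its probes near the limit on both EB arrays. From 25.5 kb on, the second EB-only block from 137019571 to 137020288 (19 probes) read 0.08 and 0.13 in ES against 5.71 and 4.87 in EB, so that EB exceeded ES at least 19.6-fold. Its 2 bins, from 137019000 and 137020000, were 3.01 ± 0.12 and 1.68 ± 0.10 log2 units higher in EB (SE, limma adjusted p = 5.53e-05 and 0.00045). Between 11.1% and 56.5% of their probes were near the limit in EB. Both bins hold probes outside the block, which lowers their means, and neither was called once near-limit probes were left out (-0.046 and 0.24 log2 units, limma adjusted p = 0.99998 each).

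ES signal came in many short blocks on both sides of the reference point. The 62 ES-only blocks held 753 probes and had a median length of 362 bp, the longest being 2500 bp, and 32 lay below and 30 above the reference point. Of these, 27 had at least 10 probes, and with EB set at the 2-fold level their ES excess was at least 3.40- to 23.5-fold. Of the 2 with the highest bounds, 1 lay near the shared blocks and 1 far from them. The block from 136998478 to 136998839 (10 probes, 4.41 to 4.72 kb) read 5.86 and 5.25 log2 units in ES against 0.13 and 0.19 in EB, so that ES exceeded EB at least 23.5-fold. The block from 136936068 to 136937115 (14 probes, -58.0 to -57.0 kb) read 5.68 and 5.30 in ES against 0.04 and 0.19 in EB, so that ES exceeded EB at least 22.5-fold, and all of its probes were near the limit in ES. The longest, from 137029024 to 137031523 (39 probes, 35.0 to 37.4 kb), read 3.95 and 5.10 in ES against 0.06 and 0.08 in EB, at least 11.5-fold. Most probes were in the block from 136978409 to 136980380 (54 probes, -15.7 to -13.7 kb), with 3.46 and 4.93 in ES against -0.02 and 0.04 in EB, at least 9.15-fold. The weakest of the 27, from 136968941 to 136969510 (13 probes), read 2.07 and 3.46 in ES against 0.0043 and 0.11 in EB.

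**Figure D4:**
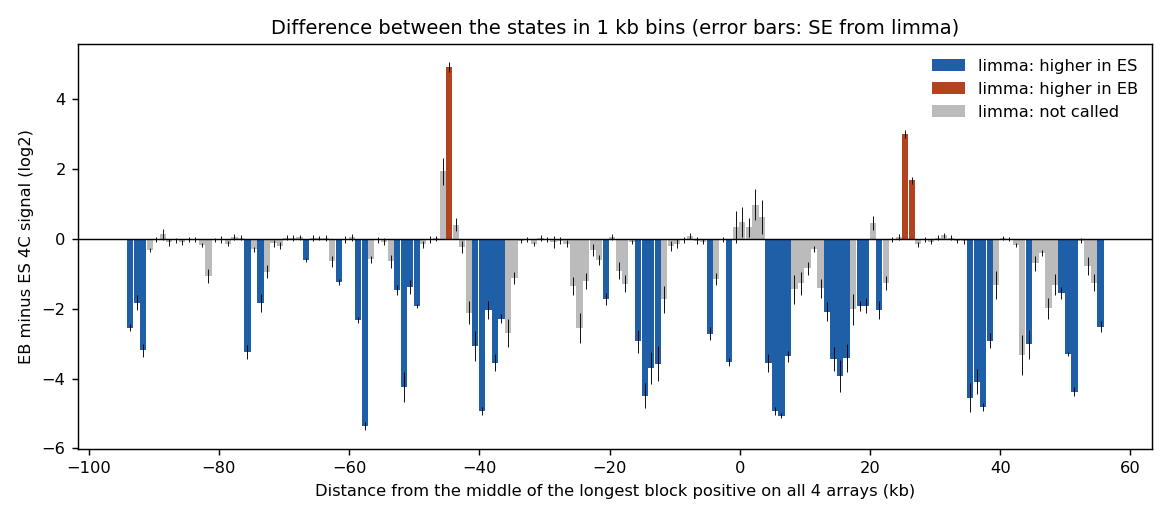
Difference of mean 4C signal between the states, EB minus ES in log2 units, in each of the 150 bins of 1 kb against distance in kb from the middle of the longest shared block, with error bars for the SE from limma. The 45 bins called higher in ES lie on both sides of 0 kb, and the 3 called higher in EB lie near -45 and 26 kb. The bins from 136993000 to 136995999, which hold most of the longest shared block, were not called. The bin from 136992000, which holds the start of that block, was called higher in ES.

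In 1 kb bins, tested over all 27714 bins of the array with at least 5 probes, limma called 45 of the 150 bins of the segment higher in ES (30%) and 3 higher in EB (2%). Over all bins the shares were 0.595% and 0.0649%. The 45 bins had EB minus ES of -5.36 to -0.60 log2 units with a median of -3.06. Below the reference point 25 of 94 bins were called higher in ES and above it 20 of 56. In 86 bins (57.3%) the lower ES array exceeded the higher EB array, against 15.8% of all bins, and in 5 (3.33%) the reverse held, against 12.6%. A mean of at least 1 log2 unit on both arrays was found in 57 bins in ES, in 12 in EB and in 9 in both, while 60 bins stayed under 0.5 on all 4 arrays. The count of bins called higher in ES was 68 with the replicate block, 77 without ES replicate 1, 70 without ES replicate 2, 27 without EB replicate 1 and 28 without EB replicate 2, and bins called higher in EB numbered 5 without ES replicate 2 or without EB replicate 2.

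The 6 bins with the largest measured drop from ES to EB fell into 4 places. Between 13.3% and 100% of their probes were near the limit on an ES array, so that their drops can be larger than measured and their order is not settled. The bin from 136936000 read 5.76 and 5.36 log2 units in ES against 0.18 and 0.23 in EB, so that ES exceeded EB at least 23.6-fold (limma adjusted p = 6.44e-06). The neighbouring bins from 136999000 and 137000000 read 5.65 and 5.27, and 5.12 and 5.27, in ES and between 0.09 and 0.56 in EB (limma adjusted p = 6.44e-06 and 1.47e-06). At -39.6 kb the bin from 136954000 read 5.23 and 5.05 in ES against 0.07 and 0.35 in EB (limma adjusted p = 6.00e-06). The last pair, from 137029000 and 137031000, read 3.68 and 5.22, and 4.99 and 5.31, in ES and between -0.11 and 0.44 in EB (limma adjusted p = 0.0051 and 6.44e-06), and the first of that pair was not called with robust eBayes (limma adjusted p = 0.99998). In all 6 bins the arrays of the 2 states were apart by more than 3 log2 units.

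Positive shares did not fall evenly with distance. From 0 to 10 kb they were 83.0% and 94.2% in ES against 40.7% and 42.3% in EB, and from -10 to 0 kb 29.1% and 32.4% in ES against 15.5% and 17.4% in EB. On the lower side the ES shares rose again to 54.0% and 58.3% between -20 and -10 kb, fell to 5% and 6.88% between -70 and -60 kb and were 48.6% and 56.8% beyond -90 kb, where 74 probes were tiled. On the upper side they fell to 13.9% and 19.6% between 20 and 30 kb and were 54.0% and 71.7% beyond 50 kb (113 probes). In EB the shares were 22.2% and 23.7% between -50 and -40 kb and 12.9% and 14.8% between 20 and 30 kb. In every other step farther than 10 kb from the reference point except that from 10 to 20 kb (6.84% and 8.37%), both EB arrays were under 5%. Taken by side and without the longest shared block, positive shares were 26.8% and 32.6% in ES against 3.23% and 5.24% in EB below it, and 46.0% and 58.0% in ES against 9.72% and 10.9% in EB above it. The upper side reached 55.8 kb and the lower side -94.1 kb, and the bait's place is not given, so that the sides are not matched in distance. The block left out is also only part of the EB stretch from 136992945 to 136997567 (118 probes). The shared block from 136995285 to 136997567 (52 probes), positive on both EB arrays throughout, was counted in the upper side. The higher EB shares there thus depend in part on where the stretch was cut, and the sides are not ranked.

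**Figure D5:**
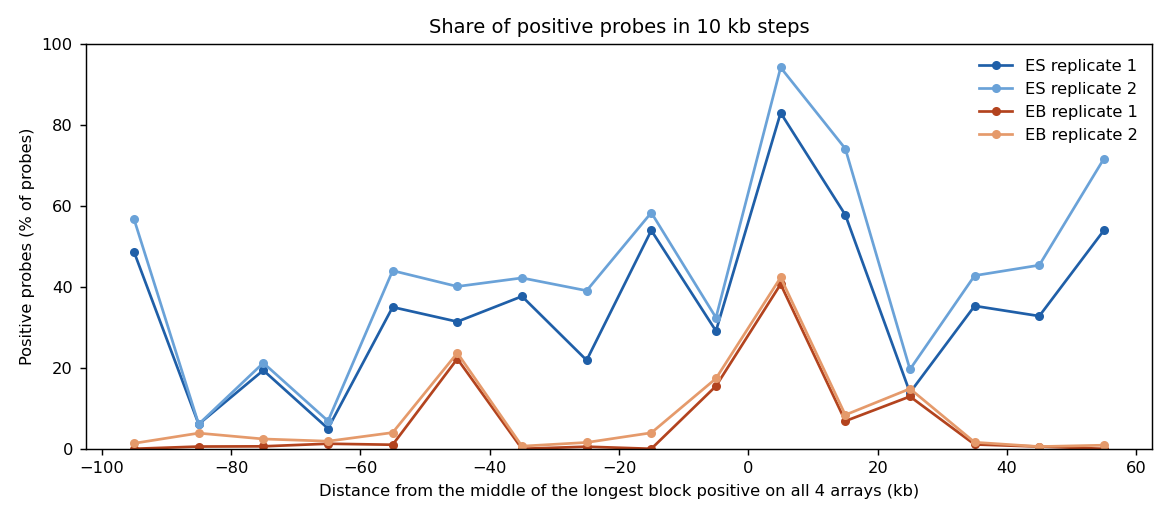
Share of positive probes in percent, in steps of 10 kb of distance from the middle of the longest shared block, with 1 line for each array. ES arrays peak from 0 to 10 kb at 83.0% and 94.2% and stay between 5% and 74.1% elsewhere, and EB arrays rise only near -45, between -10 and 20, and near 25 kb. The steps on either side of 0 kb include that block, which was picked by its signal, so their height is no finding.

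Replicates gave much the same map of the segment. Over the 2870 probes the ES arrays correlated at Pearson's r = 0.910 (Spearman's rho = 0.826) and the EB arrays at 0.962 (0.445), against 0.300 to 0.397 (0.203 to 0.256) for an ES with an EB array. Neighbouring probes share fragments, and the arrays of a replicate share a software version, so these values only describe the arrays. Of the positive probes of ES replicate 1, 98.1% were positive on ES replicate 2, and 80.0% the other way. In EB the shares were 96.5% of replicate 1 and 80.2% of replicate 2. At 37 places a tiled-region probe and a probe without a region label had the same start, and their readings differed by a median of 0.29, 0.14, 0.17 and 0.14 log2 units on the ES and EB arrays in order. The largest such difference was 1.75 log2 units, on ES replicate 1, and 34 to 37 of the 37 pairs had the same positive call.

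Both kinds of probe showed the difference between the states. Probes without a region label were positive in 56.4% and 66.6% of cases in ES against 18.8% and 19.3% in EB, and tiled-region probes in 33.3% and 41.2% in ES against 6.50% and 8.29% in EB. The 362 probes without a label were not spread evenly over the segment, so the gap between the 2 kinds of probe is not a comparison at the same places.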

How the data were processed

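The authors deposited scanner intensity for each spot and channel, extracted with NimbleScan 2.3.78 (both replicate 1 arrays) or 2.3.18 (both replicate 2 arrays), per the file headers. Steps before deposit, such as background correction, are not given in the sources used here. The 6 repeated tiling spots were averaged and random controls left out. Cy5 was log2-transformed and centred on each array's tiling median, with no loess or quantile step.

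All tiling probes, and all 1 kb bins with at least 5 probes, were fitted with limma 3.58.1 (lmFit, eBayes, group means) in R 4.3.3 and adjusted by Benjamini-Hochberg over each level, two-sided. The fit was run on simulated data drawn from limma's own model, with no scanner limit and no shared noise of neighbouring probes. That run cannot show how the fit behaves with either. Read-in used Python 3.11.15, pandas 2.3.3, and plots matplotlib 3.10.9. Where a state lay under the 2-fold level, folds are lower bounds with it at 1 log2 unit. Probe positions are as deposited, and ends add the probe length of 50 bases.

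Named were blocks of at least 10 probes that show a pattern or its extremes, up to 6 called bins and 3 called probes below the near-limit level per direction with the largest difference. Segment, lists and rules were chosen with earlier results of these data known. Only 4 arrays limit the precision.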

Additional observations from a re-analysis of the deposited data

How the results depend on the processing

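The excess of positive probes in ES kept its direction under every alternative tried, from 24.8 (positive level of 2 log2 units) to 33.2 percentage points (0.58 log2 units) and from 27.4 to 35.6 when 1 array was left out. The pattern counts moved over 1.5 times once, the probes positive on all 4 arrays being 273 with normexp. Left out 1 array at a time, ES-only probes numbered 831 to 1050, EB-only 41 to 55 and shared probes 173 to 189. Leaving out an array takes a condition away from each pattern, so these counts cannot fall and show nothing about stability. Probes called higher in ES numbered 341 with the log2 ratio of 4C to input and 128 without probes near the limit, and 479 to 1039 without 1 array. Those higher in EB numbered 104 with quantile normalization, 1 without probes near the limit, and 45 to 86 without 1 array. Bins called higher in ES numbered 17 with robust eBayes, 9 without probes near the limit, 72 in 500 bp bins, 22 in 2 kb bins and 27 to 77 without 1 array. Those higher in EB numbered 9 with quantile normalization, 0 without probes near the limit (limma) and 3 to 5 without 1 array. Leaving out probes near the limit takes away 734 of the 2870 probes, those of high signal, which lowers counts by construction. With the replicate block, 893 probes and 68 bins were called higher in ES and 54 probes and 4 bins higher in EB. The replicate numbers are shared by the groups, and deviations of same-numbered arrays from their group means correlated at 0.195 over all tiling probes and 0.139 over the segment, with 2 pairs only. With all arrays kept, 29 of 32 alternative values of the named probes and 53 of 56 of the named bins were called. With 1 array left out, the lone array of a state is assumed to vary like the other state's pair, so calls there show little about stability. Without probes near the limit, named bins other than those from 137019000 and 137020000 had under 5 probes left and gave no value. The bin from 137019000 turned to -0.046 log2 units without probes near the limit. The scanner limit bounds differences above 5.32 to 6.92 log2 units.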

Other observations

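The input channel was called different between the states by limma at 0 probes of the segment and at 0 of all 388160 tiling probes. At an unadjusted limma p under 0.05 were 78 of the 2870 probes (2.72%), against 0.333% of all tiling probes. Since this fit called no probe anywhere on the array, the 0 in the segment does not show equal input. Among the 828 ES-only probes the median EB minus ES difference of the input was -0.28 log2 units in replicate 1 and -0.018 in replicate 2. Among the 40 EB-only probes it was 0.42 in replicate 1 and -0.39 in replicate 2, and among the 1516 probes without signal -0.12 in both replicates. The part of these input differences in the 4C result was not tested.

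Probes of the longest shared block were scattered over the array, with columns from 23 to 762 and rows from 22 to 1022 of an array whose tiling probes spanned 1 to 768 and 1 to 1024.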
